A study of Mus musculus with 10 samples.

Results

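The 29 genes described here encode proteins of the small (40S) subunit of the cytoplasmic ribosome. They were taken by symbol, from Rpsa to Fau, among the 22367 protein-coding genes on chromosomes 1 to 19, X and Y of the GENCODE annotation of mm9, and all 29 symbols were found. For each gene, the bases covered by H3K27me3 peaks were counted within 2 kb upstream and 2 kb downstream of its annotated 5′ end, taken as its transcription start site (TSS). A gene, or one side of it, was counted as covered where peaks spanned at least 150 bp, which is 3 bins of the 50-bp grid on which all peaks lie.

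Small-subunit proteins bind the ribosomal RNA that reads the messenger RNA, and they form a head, a body and a platform around the decoding site. Their genes are among the most actively transcribed in dividing cells, are spliced, and often carry small nucleolar RNAs in their introns. H3K27me3, the trimethyl mark placed on histone H3 by Polycomb repressive complex 2, is known mainly from silent genes, and the Hox clusters of developmental regulators are a classical site of broad H3K27me3 in cells that do not use them.

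The study asked which changes in chromatin accompany acquired resistance of a lymphoma to an alkylating drug. All lines descend from 1 cultured mouse B-cell lymphoma line of strain C57BL/6J that carries Eµ-Myc, which drives Myc from an immunoglobulin heavy-chain enhancer in B-lineage cells, and is Cdkn2a-/-; the parental line, which was never selected, shares both. The R100, R500, R1000 and R4000 lines are sub-clones of cells that survived mafosfamide, an active form of cyclophosphamide, at 100 nM (R100), 500 nM (R500), 1000 nM (R1000) or 4000 nM (R4000) in 1 dose escalation of 34 days as a whole, so each line stands for its dose only once. For ChIP-seq the lines were grown without the drug and the chromatin was precipitated with an antibody to H3K27me3.

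There was 1 peak list per line, so no difference between lines was tested, and there was no spread between replicates to set it against. Intervals on shares are 95% Wilson intervals and cover counting error only. The lists held between 6820 (R4000) and 25180 (R100) distinct peaks that covered between 1.07 and 5.04 Mb, and the depth behind them is unknown. The lists carry no expression, so the B-cell label was checked only by coverage. None of 8 B-cell marker genes, among them Cd79a and Pax5, was covered in the parental line, and 3, 3, 2 and 1 were covered in R100, R500, R1000 and R4000. Of 6 markers of other lineages, 1 was covered in R100 and 0 in each other line, and Cdkn2a had 0 covered bases in every line. The markers of other lineages were therefore no more often covered than those of B cells, and these counts neither set B cells apart from other cells nor check the deletion.

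The peaks at these genes lay mostly in the first part of the transcribed region, and the stretches that were covered in all 4 resistant lines are shown first. Later counts use the 150 bp minimum and do not rest on these stretches. Bases covered in all 4 resistant lines were found in 8 of the 29 genes, 600 bp in all. Such bases were not counted over all protein-coding genes, so this number has no background beside it. The longest run, 200 bp, lay in an intron of Rps3, which encodes a head protein at the messenger RNA entry channel. The sequences below are from NCBIM37 (mm9), 5′ to 3′ on the strand of the gene, with CpG dinucleotides in capitals. They show 6 of the 8 stretches, all of them intronic. Those of Rps9 and Rps15a, which overlap annotated untranslated exons, are not shown. Rps25, the one member with no covered base downstream of its TSS in any line, is shown over the same distance from its TSS as the stretch of Rps3.
Rps3, chr7:106631501-106631700, minus strand: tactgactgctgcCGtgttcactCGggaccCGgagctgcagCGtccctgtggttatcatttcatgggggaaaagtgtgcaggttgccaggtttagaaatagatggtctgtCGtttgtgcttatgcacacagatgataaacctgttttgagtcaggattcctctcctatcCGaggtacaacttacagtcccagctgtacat
Rps12, chr10:23506401-23506450, minus strand: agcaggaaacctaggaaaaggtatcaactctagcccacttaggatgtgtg
Rps18, chr17:34092251-34092300, minus strand: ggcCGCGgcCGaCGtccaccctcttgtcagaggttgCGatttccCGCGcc
Rps19, chr7:25670251-25670300, plus strand: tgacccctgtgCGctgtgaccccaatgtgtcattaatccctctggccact
Rps3a, chr3:85946001-85946050, minus strand: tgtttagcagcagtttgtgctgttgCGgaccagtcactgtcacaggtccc
Rpsa, chr9:120037201-120037250, plus strand: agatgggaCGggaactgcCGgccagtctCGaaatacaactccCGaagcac
Rps25, chr9:44216345-44216544, plus strand: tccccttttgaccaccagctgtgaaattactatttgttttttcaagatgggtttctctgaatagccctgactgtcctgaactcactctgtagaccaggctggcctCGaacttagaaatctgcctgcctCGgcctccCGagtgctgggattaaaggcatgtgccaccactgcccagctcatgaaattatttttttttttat

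The stretch of Rps3 lies 548 to 747 bp downstream of the TSS, has 6 CpGs, and 150 of its 200 bp were also covered in the parental line. The matched stretch of Rps25 has 3 CpGs, and 12 of its 200 positions start a 50-base word found more than once in the genome, against 0 in the stretch of Rps3. The 50-bp stretches start 317 bp (Rpsa) to 861 bp (Rps19) from the TSS and differ widely in composition, from 0 CpGs in Rps12 to 7 in Rps18. No stretch held a 50-base word that is repeated elsewhere, apart from that of Rps25.

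In the parental line, 1 of the 29 genes was covered (3.45%, 95% interval 0.611 to 17.2%), beside 5.26% of all protein-coding genes. In R100 the count was 21 genes (72.4%, 54.3 to 85.3%), beside 17.4% of all genes. Of these 21, Fau and Rps28 reached the minimum only with bases upstream of their TSS. In R500 the count was 20 genes (69%, 50.8 to 82.7%), beside 13.3%. The parental interval held the background share, whereas the shares in R100 and R500 were 4.15 and 5.18 times the background. In R1000, 12 genes were covered (41.4%, 25.5 to 59.3%), beside 6.92%. In R4000, 15 were covered (51.7%, 34.4 to 68.6%), beside 5.51%. The share of all genes in R4000 had come back close to that of the parental line, whereas the share of small-subunit genes was 9.39 times the background. When the lists were cut to equal number, keeping the 6820 widest peaks of each, the counts of small-subunit genes were 1, 16, 18, 11 and 15 from the parental line to R4000, beside 4.84%, 11.8%, 10.3%, 6.44% and 5.51% of all genes. At equal number, the shares in R100 and R500 were 4.67 and 6.02 times the background. Peaks of equal width at the cut were kept in the order of their chromosomes, and covered bases and depth were not made equal.

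Summed over the 29 genes, the covered length was 750, 9126, 9300, 3600 and 4526 bp in the parental, R100, R500, R1000 and R4000 lines. R500 thus held slightly more bases than R100, although its list was shorter. The median gene had 0, 300, 300, 100 and 150 bp covered in these lines, whereas the median over all protein-coding genes was 0 bp in every line. Every one of the 29 had a covered base in at least 1 line, whereas 65.1% of all protein-coding genes had none.

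**Figure D1:**
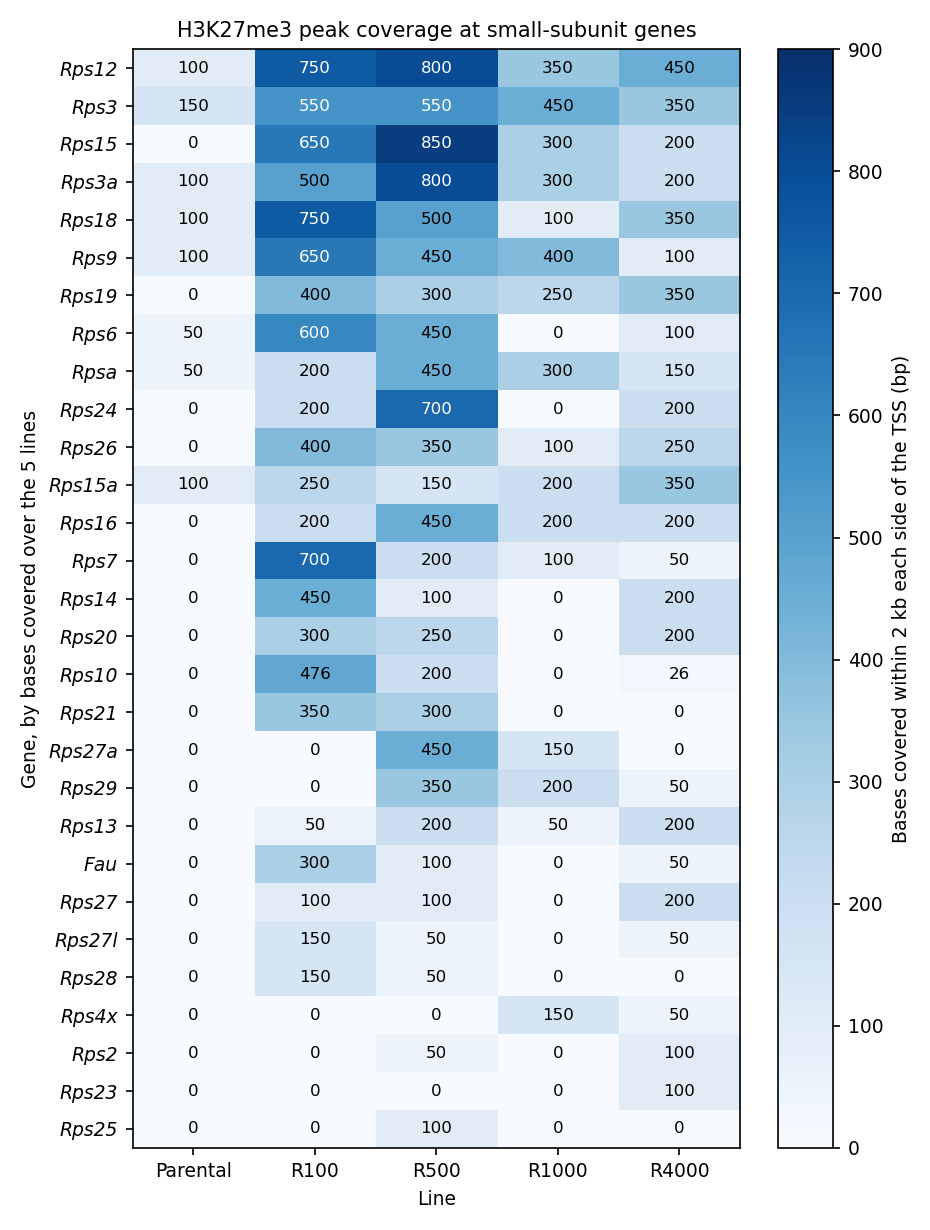
Bases covered by H3K27me3 peaks within 2 kb each side of the TSS (colour scale and printed numbers, bp) for each of the 29 small-subunit genes (rows) in the 5 lines (columns). The parental column holds at most 150 bp in any gene, and the R100 and R500 columns reach 750 and 850 bp.

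The 8 genes with the most covered bases over the 5 lines were Rps12, Rps3, Rps15, Rps3a, Rps18, Rps9, Rps19 and Rps6, of which Rps12, Rps3, Rps15, Rps18 and Rps19 belong to the head. Rps12 had 100, 750, 800, 350 and 450 bp covered, in the order parental, R100, R500, R1000 and R4000. It therefore had the most covered bases over the lines, 2450 bp, and was far above its parental value in each resistant line. Rps3, which also has a known role in repair of DNA, had 150, 550, 550, 450 and 350 bp in the same order. It was the one member that reached the 150 bp minimum in the parental line and hence in all 5 lines. Rps15, whose protein sits in the head near the decoding site, had 0, 650, 850, 300 and 200 bp. Its R500 coverage was the longest of any member in any line. Rps3a, at the platform side of the subunit, had 100, 500, 800, 300 and 200 bp.

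Rps18, a head protein next to the large subunit, had 100, 750, 500, 100 and 350 bp covered from the parental line to R4000. Its R1000 value was back at the parental one, and its R4000 value was higher again. Rps9, a body protein that binds early in assembly, had 100, 650, 450, 400 and 100 bp, so that R4000 ended at the parental value. Rps19, which is the gene most often mutated in Diamond-Blackfan anaemia, had 0, 400, 300, 250 and 350 bp. Unlike Rps9, it kept at least 250 bp in each resistant line. Rps6, the substrate of the S6 kinases that respond to growth signals, had 50, 600, 450, 0 and 100 bp. It was the one member whose R1000 value was below its parental value.

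Peaks were not wholly absent from these genes in the parental line. Besides Rps3, Rps3a, Rps6, Rps9, Rps12 and Rps18, the genes Rpsa and Rps15a had 50 and 100 bp there, which makes 8 genes with any parental base (27.6%, compared with 8.31% of all protein-coding genes). Rpsa encodes the protein also known as the laminin receptor, and Rps15a a body protein. With any covered base counted, the parental line thus had 8 of 29 genes, and the count of 1 rests on the 150 bp minimum. Of the 750 parental bases, the 4 resistant lines, in order of dose, covered 550 (73.3%), 500 (66.7%), 600 (80%) and 450 (60%) again. Most of the few parental bases therefore lay where each resistant line also had peaks. The parental peak of Rps6 overlapped no peak of a resistant line. This overlap was not computed over all protein-coding genes. The parental line had 1 such peak per gene, 50 to 150 bp wide.

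Counted gene by gene, 23 of the 29 (79.3%) were not covered in the parental line and were covered in R100 or R500, beside 14.3% of all protein-coding genes. Of these 23, 16 were covered again in R1000 or R4000 and 7 in neither. Fau and Rps28, among these 7, reached the minimum only with bases upstream of their TSS. Among all protein-coding genes the same split was 750 and 2459 genes, so that the larger part was covered in neither of the high-dose lines. Covered in all 4 resistant lines were 8 genes (27.6%), Rpsa, Rps3, Rps3a, Rps12, Rps15, Rps15a, Rps16 and Rps19, beside 4.04% of all genes. Rps15 and Rps16 reached this without a single base common to the 4 lines, whereas Rps9 and Rps18, which have such bases, were under the minimum in 1 line each. Rps16, whose tail reaches the transfer RNA at the peptidyl site, had 0, 200, 450, 200 and 200 bp in the 5 lines.

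The other patterns held 1 to 4 genes each. Rps18, Rps20, Rps24 and Rps26 were covered in R100, R500 and R4000 but not in R1000. Rps26 lines the channel through which the messenger RNA leaves, and Rps24 and Rps26, like Rps19, are Diamond-Blackfan anaemia genes. Rps9 was covered in R100, R500 and R1000, and Rps14, the gene lost in the 5q- syndrome, in R100 and R4000. Rps6, Rps7, Rps10 and Rps21 were covered in R100 and R500 alone. Rps7 is known to bind the p53 regulator Mdm2, and it had the largest step of these from the parental line, from 0 to 700 bp in R100, and 200, 100 and 50 bp in the lines of higher dose. Fau, Rps27l and Rps28 reached the minimum in R100 alone, with 300, 150 and 150 bp there. Fau and Rps28 did so only with bases upstream of their TSS, and had 50 and 100 bp downstream. Fau encodes a ubiquitin-like protein fused to a ribosomal protein, and Rps27l is a p53-responsive relative of Rps27.

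Of the genes first covered in R500, Rps27a and Rps29 were covered in R500 and R1000, and Rps13 in R500 and R4000. Rps27a encodes ubiquitin fused to a ribosomal protein and had 0, 0, 450, 150 and 0 bp. Rps4x, the X-linked member, reached the minimum in R1000 alone with 150 bp, and Rps27 in R4000 alone with 200 bp. Rps2, Rps23 and Rps25 were covered in no line (10.3%, compared with 79.9% of all protein-coding genes). Rps2 had 0, 0, 50, 0 and 100 bp. Rps23, whose protein lies at the decoding centre, had 0 bp in 4 lines and 100 bp in R4000. Rps25, a head protein used by some viral internal ribosome entry sites, had 100 bp in R500 and 0 bp in the others. All 3 had peaks, but of 50 to 100 bp per line, under the minimum. At a minimum of 50 bp no member was left without coverage, and at 300 bp 8 were.

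By place in the subunit, the 12 head genes and the 17 body and platform genes overlapped widely in their values. In R100, 9 head genes (75%, 46.8 to 91.1%) and 12 body and platform genes (70.6%, 46.9 to 86.7%) were covered, beside 17.4% of all genes. In R1000 the counts were 7 (58.3%, 32 to 80.7%) and 5 (29.4%, 13.3 to 53.1%), beside 6.92%. In R4000 they were 7 (58.3%, 32 to 80.7%) and 8 (47.1%, 26.2 to 69%), beside 5.51%. In R500 the counts were 10 of 12 and 10 of 17, beside 13.3% of all genes, and in the parental line 1 and 0, beside 5.26%. At the 150 bp minimum the head share was the higher one in every line, and the intervals overlapped in each. With any covered base counted, the head share was lower in the parental line (25% and 29.4%) and R100 (75% and 82.4%). It was also lower in R4000 (75% and 94.1%), but higher in R500 (100% and 88.2%) and R1000 (66.7% and 47.1%). Any base was found in 8.31%, 28.2%, 21.4%, 12.6% and 11.1% of all protein-coding genes, from the parental line to R4000. The order of head and body thus rests on the minimum.

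The coverage lay almost wholly downstream of the TSS. Downstream, 1, 19, 20, 12 and 15 genes were covered in the parental, R100, R500, R1000 and R4000 lines, beside 3.84%, 14.3%, 10.8%, 5.15% and 4.06% of all protein-coding genes. Upstream the counts were 0, 2, 0, 0 and 0 genes, beside 2.68%, 7.61%, 6.72%, 3.25% and 2.19%. The downstream share was thus 12.8 times the background in R4000, while upstream the genes were at or below it in every line. Among covered genes, all 20 in R500, all 12 in R1000 and all 15 in R4000 had no upstream base, compared with 35.5%, 37.5% and 42.2% of all covered protein-coding genes. In R100, 17 of 21 had none (81%, compared with 39.5%). The large-subunit genes were alike in this, with no upstream base in 91.4%, 87.9%, 95.2% and 95.8% of their covered genes in the resistant lines in order of dose. The Hox genes, counted in the same way, had covered bases on both sides in 32 of 33 covered entries in R100 and in 16 of 18 in R4000.

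The position was also narrow. Between 250 and 999 bp downstream of the TSS lay 100%, 76.9%, 84.9%, 85.3% and 91.4% of the covered bases from the parental line to R4000. The first 250 bp downstream held 0%, 7.34%, 5.58%, 7% and 1.3%. The zone next to the TSS thus held few covered bases in every line, and the large-subunit genes were alike. Between 250 and 999 bp they held 81%, 77%, 77.2% and 86.3% in the resistant lines in order of dose. Their first 250 bp held 8.8%, 6.54%, 5.6% and 5.87%. These zone shares were not computed over all protein-coding genes. In R100 the bin from 0 to 49 bp was covered in 2.98% of all genes, also below their highest bin. Among small-subunit genes with a downstream base, the median gene had its middle covered base 540 bp from the TSS in R100 and 560 bp in R500. The distance was 686, 686 and 590 bp in the parental line, R1000 and R4000. The SD over genes was between 154 and 385 bp, and differences between lines in this distance were not tested. In R500, 58.6% of the 29 genes were covered in the single bin from 400 to 449 bp, where the share of members was at its highest. In R100 the highest share was 55.2%, from 500 bp, and in R4000 it was 27.6%, from 350 bp. The highest share of all protein-coding genes was 7.74% in R100, 5.62% in R500 and 1.82% in R4000.

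**Figure D2:**
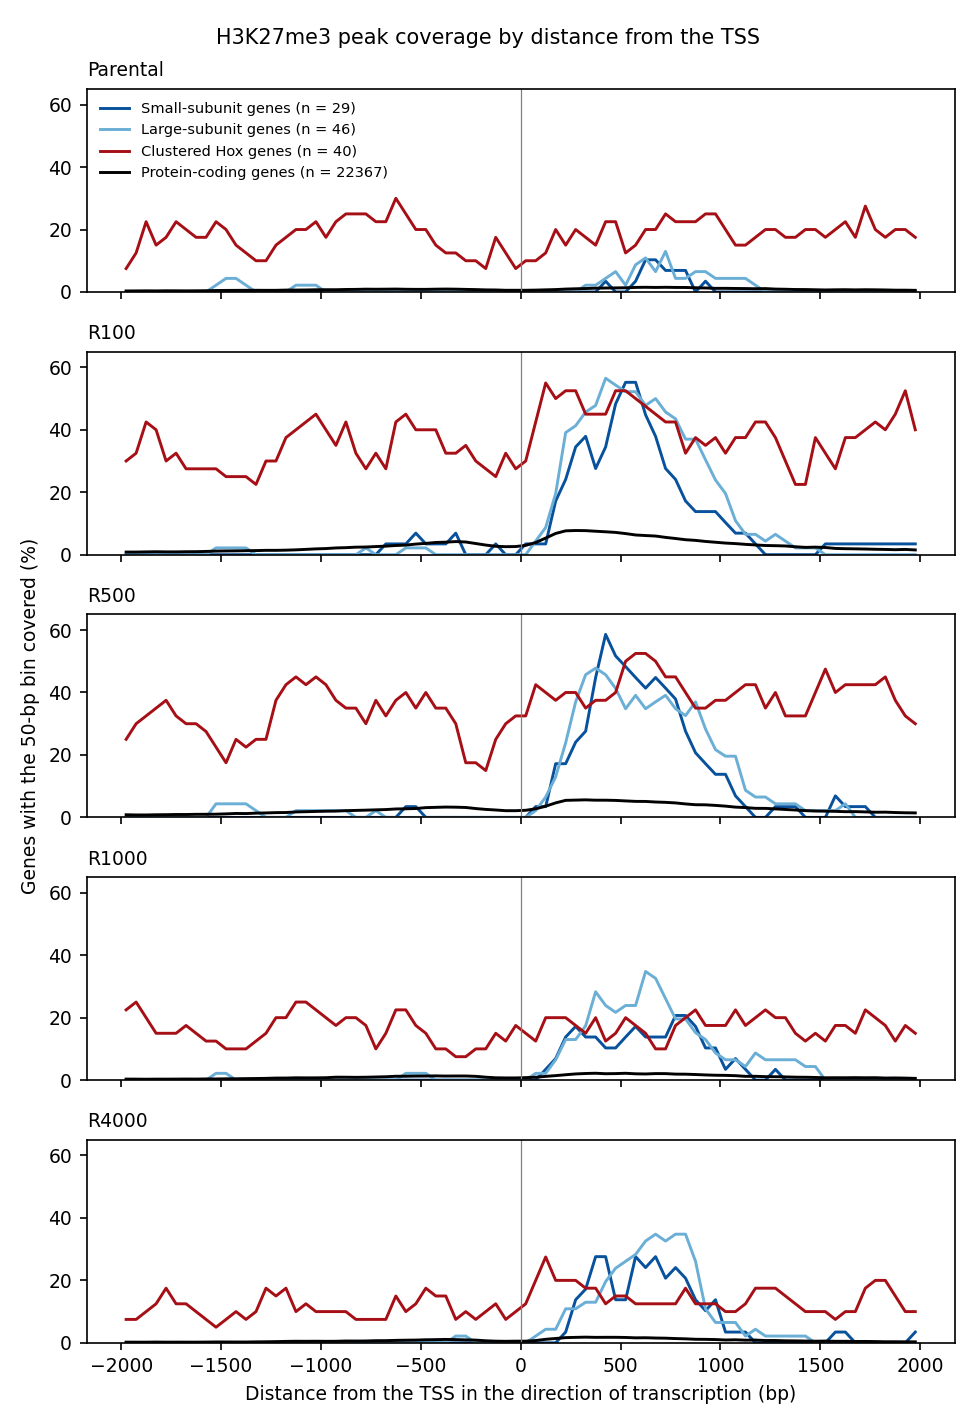
Share of genes (y, %) whose 50-bp bin at each distance from the TSS (x, bp, negative upstream) was covered in each line, for the 29 small-subunit genes, 46 large-subunit genes, 40 Hox entries and 22367 protein-coding genes. The small-subunit line stays at or below 6.9% upstream and rises to 55.2% in R100 and 58.6% in R500 downstream, while the Hox line is high on both sides.

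Rps10 had the longest coverage outside this distance. Its covered bases began 1524 bp from the annotated TSS or farther, and it had 476, 200, 0 and 26 bp in the resistant lines in order of dose. The 5′ end shared by most of its transcripts lies 1353 bp downstream of the annotated one. Measured from that end, its peaks lie within 1 kb of the start, as most of those of the other genes do. For Rps18 and Rps21 the shared 5′ end is 341 and 41 bp downstream, and for the other 26 genes it is the annotated one. Taking these ends changed no count of covered members in any line. The peaks of Rps2 in R500 and R4000 both began 1540 bp from its TSS. Peaks that began past 1000 bp were also found at Rps12 (R500), Rps26 (R500 and R1000), Rps4x (R1000) and Rps29 (R1000), the farthest of them ending at 1414 bp, at Rps12. The distance was thus not shared by every peak.

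**Figure D3:**
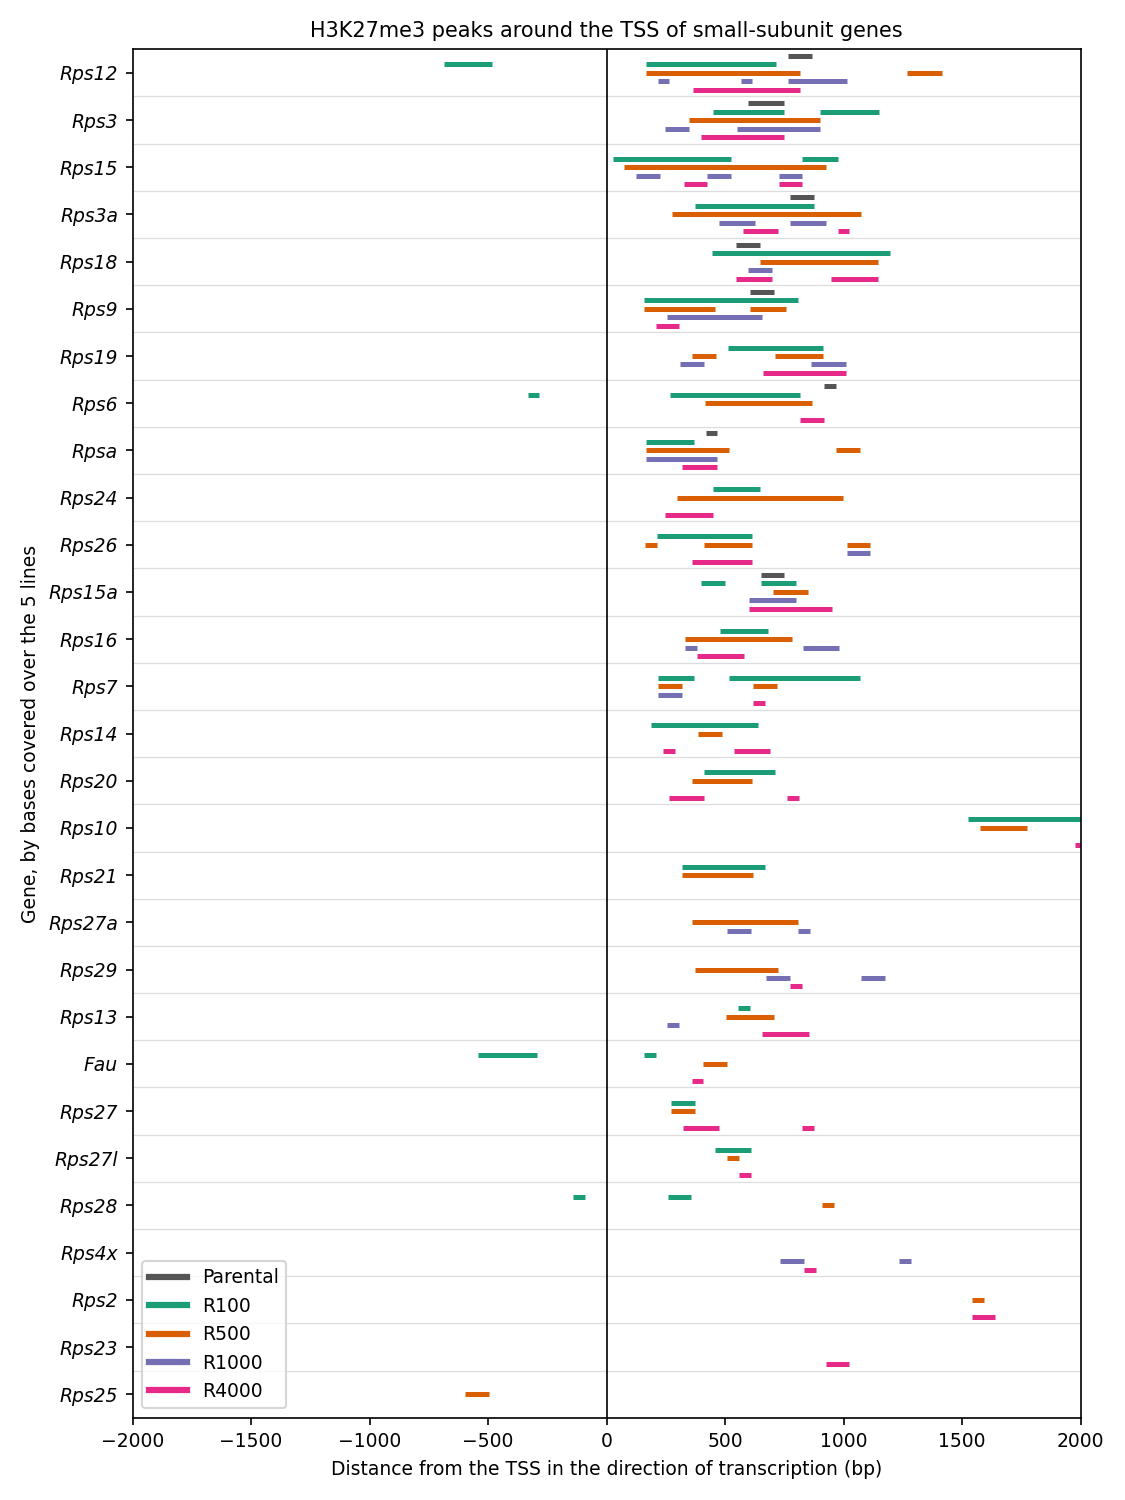
H3K27me3 peaks of the 5 lines (coloured bars, one row of colours per line) at each of the 29 small-subunit genes, by distance from the TSS in the direction of transcription (x, bp). Most bars lie between 250 and 999 bp downstream, and 5 genes have a bar upstream of the TSS.

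Only 5 peaks lay upstream within the window, 4 in R100 and 1 in R500. Those of Rps12 (200 bp wide, 486 to 685 bp upstream) and Rps6 (50 bp wide, 285 to 334 bp upstream) have no gene starting on the other strand within 500 bp. The other 3 genes share a divergent promoter with a neighbour, and their upstream peaks lie within the start of that neighbour. For Fau the peak was 250 bp wide and lay 158 to 407 bp downstream of the TSS of Mrpl49, which encodes a mitochondrial ribosomal protein. For Rps28 it was 50 bp wide and lay 65 to 114 bp into Ndufa7, a gene of respiratory complex I. For Rps25 the 100 bp of R500 lay 331 to 430 bp into Trappc4, a gene of vesicle transport. The bases counted upstream of these 3 members are therefore downstream bases of another gene.

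The 5 members with such a neighbour within 500 bp, Rps2, Rps25, Rps27, Rps28 and Fau, were seen in the data to have little coverage. Downstream of the TSS, 1 of these 5 was covered in any line, compared with 23 of the other 24. With the 5′ ends shared by most transcripts, Rps18 joined them and the counts were 2 of 6 and 22 of 23. The large-subunit genes did not show the same split, with 3 of 4 and 38 of 42 covered. Among all protein-coding genes the shares were 15.3% and 16.7%. This grouping was made after the values were seen, on few genes, and was not tested.

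From line to line the genes moved unevenly. From the parental line to R100, 23 genes had more covered bases, 0 had fewer and 6 stayed equal, with a median change of 300 bp. Over all protein-coding genes 6166 had more and 213 fewer at this step. From R100 to R500, 11 had more and 14 fewer, with a median change of 0 bp and a summed change of 174 bp. Over all protein-coding genes 2277 had more and 4520 fewer, and the summed change was -397724 bp. Of the 46 large-subunit genes, 13 had more and 27 fewer. Among the 29, the longest step up was that of Rps24, 500 bp, and the longest step down that of Rps7, -500 bp. From R500 to R1000, 26 had fewer and 2 more, and the summed change was -5700 bp, while 4383 of all genes had fewer and 727 more. From the parental line to R100 and from R500 to R1000, most of the 29 that moved did so in the direction of the whole lists. From R1000 to R4000, 16 had more and 9 fewer, and the summed change was 926 bp. Over all protein-coding genes 1345 had more and 2171 fewer, and the summed change was -265363 bp. In R4000, 24 of the 29 had more covered bases than in the parental line and 0 had fewer, compared with 1693 and 1268 of all genes. Counted at 300 bp in place of 150 bp, R4000 had 5 covered members and R1000 had 6, so the higher count in R4000 rests on stretches shorter than 300 bp.

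The same bases were covered again in part. Of the bases covered in R100, 60.8% were covered in R500, and these made 59.7% of those in R500. Of the bases covered in R1000, 30.6% were covered in R4000, which is 24.3% of those in R4000. R1000 and R4000 each shared more with R500, 63.9% and 64.1% of their bases, than with each other. Of the 12 genes covered in R1000, 11 were covered in R500 (91.7%) and 8 in R4000 (66.7%). Over all protein-coding genes covered in R1000 the shares were 92.5% and 59.4%, close to these. In R100, 9 of the 12 were covered (75%), compared with 93.9% over all genes. Of the 15 genes covered in R4000, 8 were covered in R1000 (53.3%), compared with 74.6% over all genes. The gene overlap was thus near that of the whole lists in some pairs and lower in others. The overlap of bases was not computed over all protein-coding genes. The R500 list is the longer one.

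Peaks at these genes were wider in the low-dose lines. The median width was 250 bp in R100 and 200 bp in R500, compared with 100 bp over the whole list of each line. In the parental line, R1000 and R4000 it was 100 bp, the same as in the whole lists. Peaks of at least 500 bp numbered 8 of 31 in R100 (25.8%) and 6 of 34 in R500 (17.6%), compared with 8.93% and 9.72% of the whole lists, and 0 in the other lines. The widest were 750 bp in R100, at Rps18, and 850 bp in R500, at Rps15. The number of peaks at the 29 genes was 31, 34, 27 and 31 in the 4 resistant lines, so R100 and R4000 had equally many and differed in their width. Beside other covered genes the covered length was not unusual. The median covered small-subunit gene had 400, 450, 275 and 200 bp in the resistant lines in order of dose. Over all covered protein-coding genes the median was 400, 500, 400 and 350 bp.

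Introns held most of the covered bases, as they did of the windows. Of the downstream windows of the 29 genes, 67.3% was intron and 26.5% exon. Of the covered bases, between 73.2% (R100 and R4000) and 81.7% (R1000) were intronic. Small nucleolar RNAs held 1.83% of the windows and up to 6% of the covered bases, in R1000. Ribosomal protein genes have many processed copies elsewhere in the genome, which repeat their exons but not their introns. In the exons of the downstream windows 28.5% of 50-base words occurred more than once in the genome, and in the introns 1.33%. Of the covered intron bases at most 0.17%, in R1000, started such a word. The covered intron bases therefore lay on sequence that is nearly all found once. Of the covered exon bases, 10.6% to 22.5% in the resistant lines started a repeated word, so these were placed less surely. Bases were split in this way and peaks were not, and a peak can hold both kinds.

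The 29 genes were richer in CpG than most. In the first 1 kb downstream of the TSS the median was 5.6 CpGs per 100 bp, compared with 3.4 over all protein-coding genes and 6.35 over the large-subunit genes. Among the 29, genes with more CpGs had more covered downstream bases over the 5 lines, with a Spearman rho of 0.554 over 29 genes. The rho was 0.578 with GC content and 0.236 with gene length. Rps2, with 1.1 CpGs per 100 bp, had 150 bp, and Rps3a, with 8.5, had 1900 bp. Rps12, which had the most bases, was near the middle at 5.1. Over the 46 large-subunit genes the rho with CpG was 0.252. Genes of a line share a library and a peak caller and are not independent, and the part of base composition in the coverage was not tested.

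The large-subunit genes were covered to a similar extent in the resistant lines. Of 46, 7 were covered in the parental line (15.2%, 7.57 to 28.2%) and 35 (76.1%), 33 (71.7%), 21 (45.7%) and 24 (52.2%) in the resistant lines in order of dose. The shares of all protein-coding genes were 5.26% in the parental line and 17.4%, 13.3%, 6.92% and 5.51% in the resistant lines. In the parental line the large subunit was thus at 2.89 times the background, compared with 0.656 times for the small subunit. The 2 subunits differed by at most 4.27 percentage points in the resistant lines, and by 11.8 points in the parental line, with overlapping intervals in each line. Downstream alone the gap in R100 was 10.6 points (65.5% and 76.1%), and upstream in R500 it was 8.7 points (0% and 8.7%), the large subunit being higher in both. From R1000 to R4000 the large-subunit genes had more bases in 16 cases and fewer in 17, compared with 16 and 9 for the small subunit.

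Other genes of protein synthesis were covered less often in the 4 resistant lines. In the parental line 8.11% of the translation factor genes were covered, compared with 3.45% of the small-subunit genes. The assembly factor and mitochondrial lists had 0% there. Of 37 translation factor genes, 3, 11, 12, 8 and 5 were covered from the parental line to R4000, the last being 13.5% (5.91 to 28%). Of 35 genes for assembly factors of the small subunit, which process its RNA in the nucleolus, 0, 12, 9, 4 and 1 were covered, the last being 2.86% (0.506 to 14.5%). Of 30 genes for the small subunit of the mitochondrial ribosome, 0, 6, 5, 1 and 1 were covered, the last being 3.33% (0.591 to 16.7%). In R100, R500 and R1000, 17.4%, 13.3% and 6.92% of all protein-coding genes were covered. The translation factors stood above this, at 29.7%, 32.4% and 21.6%, and so did the assembly factors, at 34.3%, 25.7% and 11.4%. For the assembly factors in R1000, however, the interval (4.54 to 26%) held the share of all genes. The mitochondrial list was nearer to the shares of all genes, at 20%, 16.7% and 3.33%. In R4000 the intervals of these 3 lists lay below that of the small-subunit genes (34.4 to 68.6%), and those of the last 2 held the background of 5.51%. Genes for the proteins of the subunit were thus more often covered in R4000 than genes for the factors that build it, as the plot of shares by list shows.

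**Figure D4:**
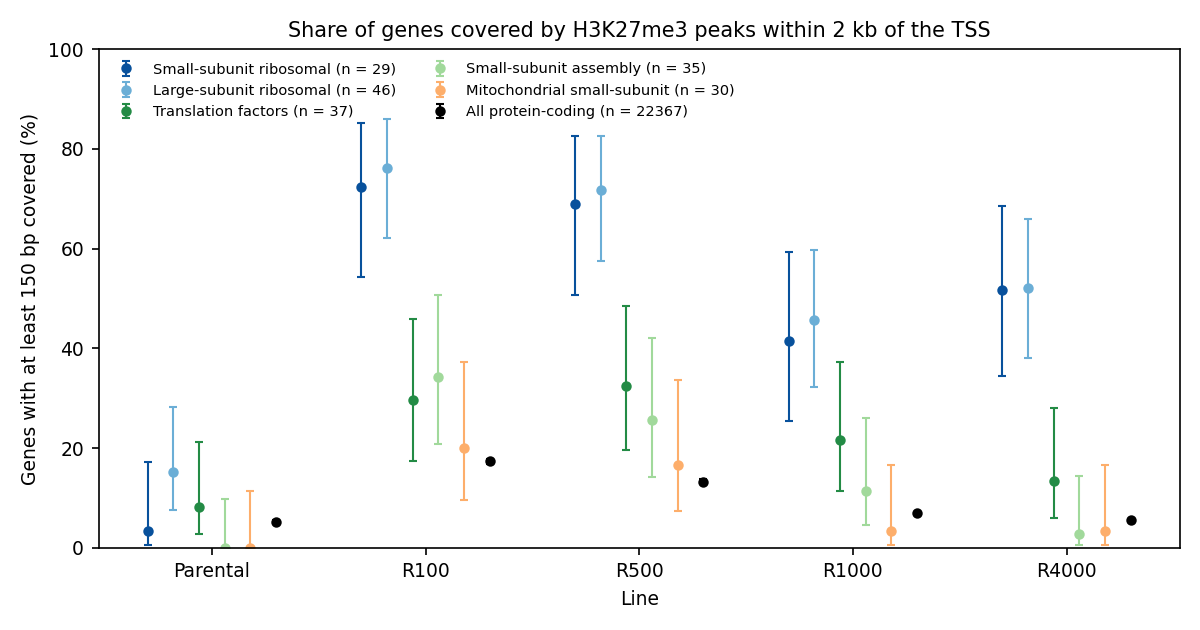
Share of genes with at least 150 bp covered within 2 kb of the TSS (y, %) in each line (x) for 6 gene lists; points are shares and bars are 95% Wilson intervals, which cover counting error only. Both cytoplasmic ribosomal lists stand above the others in the 4 resistant lines, and the parental interval of the small-subunit genes (0.611 to 17.2%) holds the share of all protein-coding genes (5.26%).

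The Hox genes, unlike the small-subunit genes, were already widely covered in the parental line. Of 40 Hox entries, 23 were covered there (57.5%), and 33, 33, 24 and 18 in the resistant lines. Their covered entries held a median of 1000 bp (parental) and 1650 bp (R100), compared with 150 and 400 bp for covered small-subunit genes. Of each 10 kb of peaks in a list, the downstream windows of the 29 genes held 4.6, 17, 20.3, 22.3 and 42.2 bp, from the parental line to R4000. For the Hox entries the values were 92.6, 64.7, 70.7, 84.9 and 108 bp. The large-subunit genes held 13.8, 36.3, 34.7, 57.4 and 84.8 bp, and all protein-coding genes together 2681, 3655, 3378, 3734 and 4124 bp. The part held by the small-subunit genes was highest in R4000, and so were those of the large-subunit genes, the Hox entries and all genes.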

How the data were processed

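H3K27me3 ChIP-seq peak lists of 5 lines were used, and 5 RRBS samples were not analysed here. The authors' peak calls rest on a Poisson test of each ChIP library against its input. The deposited lists have 3 columns, chromosome, start and end in bp, without any height or read number. The build is mm9, and Bowtie is named in the submitters' processing notes without a version. The methods state a p-value limit per bin for grouping promoters. Whether it is also the threshold of the lists, and whether these pool the replicates, is not given in the sources used here. Every peak is entered 2 times in the lists of R100 and R500, and was counted once.

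Samples were matched to lines by their titles. Covered bases were counted with numpy 2.4.6 and pandas 2.3.3 under Python 3.11.15, and the counting was tested on simulated data. Sequence was read with pysam 0.24.0, rho computed with scipy 1.17.1, Wilson intervals with statsmodels 0.14.6, and figures drawn with matplotlib 3.10.9. A 50-base word was counted on both strands. With 1 list per line no test was made. Members and lists were chosen with earlier results of these data known. All 29 members are named, and values are given in full for the 8 with the most covered bases and for those covered in the parental line, in no line or in all 5. Rpl41 was not found, and Hoxa3 has 2 gene entries. An alternative that adds genes to the 29 is not reported here.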

Additional observations from a re-analysis of the deposited data

Results flagged for a closer look

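Rps6, the substrate of the S6 kinases, was the one member whose covered bases moved in opposite directions from the parental line in different resistant lines. Relative to the 50 bp of the parental line it had 550 bp more in R100, 400 bp more in R500 and 50 bp more in R4000, and in R1000 it fell by 50 bp, to 0. The difference between the lines was not tested, since each has 1 list, and 50 bp is 1 bin of the grid.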

How the results depend on the processing

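No paired analysis was possible because each line has 1 peak list. Under 8 other settings, 159 counts were recomputed, and 138 stayed within 1.5 times the reported count. That tally is no measure of robustness. It includes the upstream counts of the parental line, R1000 and R4000, which were 0 under every setting and could not fall under a stricter one. In the same lines the downstream counts repeated those of both sides, so they were scored again. The median distances from the TSS moved by at most 44.5 bp. With a minimum of 50 bp, covered members were 8 in the parental line and 24 in R4000 (downstream likewise 8 and 24), upstream 4 in R100 and 1 in R500, 13 in all 4 resistant lines and 0 in no line. With 300 bp they were 0 in the parental line, 6 in R1000 and 5 in R4000 (downstream likewise 0, 6 and 5), upstream 0 in R100, 2 in all 4 resistant lines and 8 in no line. Members covered in no line were 5 with a window of 1 kb, 5 without peaks 50 bp wide, and 6 with the lists reduced to their widest peaks, where 5 were covered in all 4 resistant lines. Fewer genes pass a stricter minimum by construction. The number absent in the parental line and covered in R100 or R500 stayed between 19 and 24. The depth of each library is unknown, and line and depth cannot be told apart with 1 list each.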
